A study of Homo sapiens with 5 samples.

Results

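The genes described are the translation initiation and elongation factor genes, chosen as all protein-coding genes of the human RefSeq table whose symbols start with EIF1, EIF2, EIF3, EIF4, EIF5, EIF6, EEF1 or EEF2. The rule gave 70 of the 19866 protein-coding genes on chromosomes, and the other 19796 genes served as background. It takes in regulators of the factors, enzymes that modify them and a few others. The remaining 54 genes, listed by symbol, are called factor subunit genes here. FOXO3A occupancy had been mapped by CUT&Tag, in which an antibody brings a transposase to chromatin so that DNA near the bound protein is cut and tagged. Libraries came from U-937 (2 libraries) and THP-1 (3 libraries), established human cell lines with monocytic features that the labels class as acute myeloid leukemia cells. All used the same FOXO3A antibody, the labels give neither line a treatment or genetic change, and no control library was used here.

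Protein synthesis starts when the eIF2 complex carries the initiator tRNA to the small ribosomal subunit, eIF3 and the cap-binding eIF4F complex bring in the mRNA, and eEF1 and eEF2 then drive the ribosome along it. Cells slow this machinery by phosphorylating eIF2, which blocks its exchange factor eIF2B, or through the 4E-BP proteins, which hold the cap-binding protein eIF4E. FOXO factors are known to switch on the 4E-BP gene of Drosophila, and 4E-BP1 is counted among mammalian FOXO targets. AKT signalling keeps FOXO3A out of the nucleus and, through mTORC1, releases eIF4E from the 4E-BPs.

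A peak list with entries was found for 1 library of each line, U-937 replicate 1 with 2272 peaks and THP-1 replicate 1 with 1282, of which 1037 lay on chromosomes. The other 3 libraries held 0 peaks. Read depth is unknown and a single list stands for each line, so counts are given with exact 95% intervals for counting error only and no test between lines or gene sets was made. Peak lists hold no expression values, so the labelled cell type could not be checked against its markers.

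The promoters below belong to some of the genes whose U-937 peak covered most or all of the 250 bases before a start listed by RefSeq (GRCh38.p14). They are the strand of the gene, read 5′ to 3′, at chr17:7307378-7307627 (plus strand, the EIF5A start nearest to the summit), chrX:20141839-20142088 (minus strand), chr11:62573892-62574141 (minus strand), chr17:7572575-7572824 (plus strand) and chr15:44536897-44537146 (plus strand). Capitals mark matches on either strand to the SP/KLF motif GGGCGG and, in EIF5A, also to the NRF1 motif.
EIF5A: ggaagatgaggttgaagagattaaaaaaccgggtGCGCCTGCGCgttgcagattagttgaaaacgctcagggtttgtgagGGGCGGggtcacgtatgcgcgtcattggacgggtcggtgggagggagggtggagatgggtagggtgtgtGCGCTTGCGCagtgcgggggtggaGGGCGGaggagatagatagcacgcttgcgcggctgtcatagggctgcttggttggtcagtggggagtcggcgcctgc
EIF1AX: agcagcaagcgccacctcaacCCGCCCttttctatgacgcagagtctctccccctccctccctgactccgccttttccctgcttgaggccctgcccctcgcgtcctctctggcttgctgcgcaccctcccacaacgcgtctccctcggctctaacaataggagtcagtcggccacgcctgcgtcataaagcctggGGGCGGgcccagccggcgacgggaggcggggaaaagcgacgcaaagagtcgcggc
EEF1G: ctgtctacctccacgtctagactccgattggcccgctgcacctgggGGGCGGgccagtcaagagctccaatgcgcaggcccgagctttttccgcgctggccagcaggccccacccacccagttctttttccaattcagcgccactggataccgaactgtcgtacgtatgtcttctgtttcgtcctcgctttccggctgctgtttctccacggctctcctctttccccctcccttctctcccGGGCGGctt
EIF4A1: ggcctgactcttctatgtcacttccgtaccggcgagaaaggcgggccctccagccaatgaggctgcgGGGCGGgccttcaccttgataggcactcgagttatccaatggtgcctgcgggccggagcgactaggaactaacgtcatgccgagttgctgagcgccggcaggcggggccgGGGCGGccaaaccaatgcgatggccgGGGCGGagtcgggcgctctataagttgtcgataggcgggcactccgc
EIF3J: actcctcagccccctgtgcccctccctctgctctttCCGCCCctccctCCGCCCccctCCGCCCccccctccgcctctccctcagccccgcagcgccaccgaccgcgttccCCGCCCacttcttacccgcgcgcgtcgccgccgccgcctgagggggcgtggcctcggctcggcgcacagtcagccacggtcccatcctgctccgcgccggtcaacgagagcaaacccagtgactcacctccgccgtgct
The peak covered 230 of the 250 bases in EIF5A, 198 in EIF1AX, 207 in EEF1G, 229 in EIF4A1 and all 250 in EIF3J. The summit, the point of highest signal in a peak, lay inside the printed stretch in the first 4 genes and upstream of it in EIF3J. None of the 5 stretches held the forkhead motif GTAAACA, the sequence that FOXO proteins are known to bind, or its looser form GTAAANA. The stretch before a second listed start of EIF2B4, 135 bp downstream of its summit, was also mostly under a peak but is not printed.

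In U-937, 11 of the 70 translation factor genes had a peak summit within 1000 bp of the gene start or end (15.7%, 95% interval 8.11 to 26.4), beside 6.99% of the other protein-coding genes (1384 of 19796). The background share would equal 4.89 of 70 genes. The 11 genes lay on 9 chromosomes and had 12 peaks between them. In THP-1, 0 of the 70 genes had such a peak, which at 3 counts of the total allows a share of up to 4.29%, beside 0.222% of the other genes (44 of 19796). As that background equals only 0.156 of 70 genes, a THP-1 count of 0 cannot be told apart from it. The share in U-937 thus exceeded that in THP-1 by 15.7 percentage points for the translation factor genes and by 6.77 points for the other genes.

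The gap to the background was smaller at 100000 bp than at 1000 bp, and wide again farther out. Within 10000 bp a U-937 summit was found for 18.6% of the translation factor genes and 11.3% of the others, within 50000 bp for 27.1% and 23.3%, and within 100000 bp for 34.3% and 33.5%. Within 251189 bp the shares were 64.3% and 52.2%, and within 398107 bp 74.3% and 63.4%. The median distance to the nearest U-937 summit was 164 kb for the translation factor genes and 227 kb for the others, leaving out genes on chromosome Y, where U-937 had no peak. In THP-1 the medians were 4519 kb and 2384 kb. Of the called genes EIF5A was the farthest from its summit, at 495 bp, and the next gene out was EIF3L, an eIF3 subunit gene, at 4920 bp, so that no gene lay near the limit of the 1000 bp window. The U-937 count was also 11 of 70 within 500 bp, with EIF5A just inside that limit (6.20% of the other genes) and within 3000 bp (8.19%), and where any overlap of peak and window counted (7.14%). Of the 56 genes with a listed strand, 9 were called when gene starts but not ends were searched (7.22% of the other genes) and 9 at any listed start (7.72%). THP-1 had 0 called genes under each of these rules, beside 0.131%, 0.500%, 0.268%, 0.190% and 0.234% of the other genes in the same order.

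**Figure D1:**
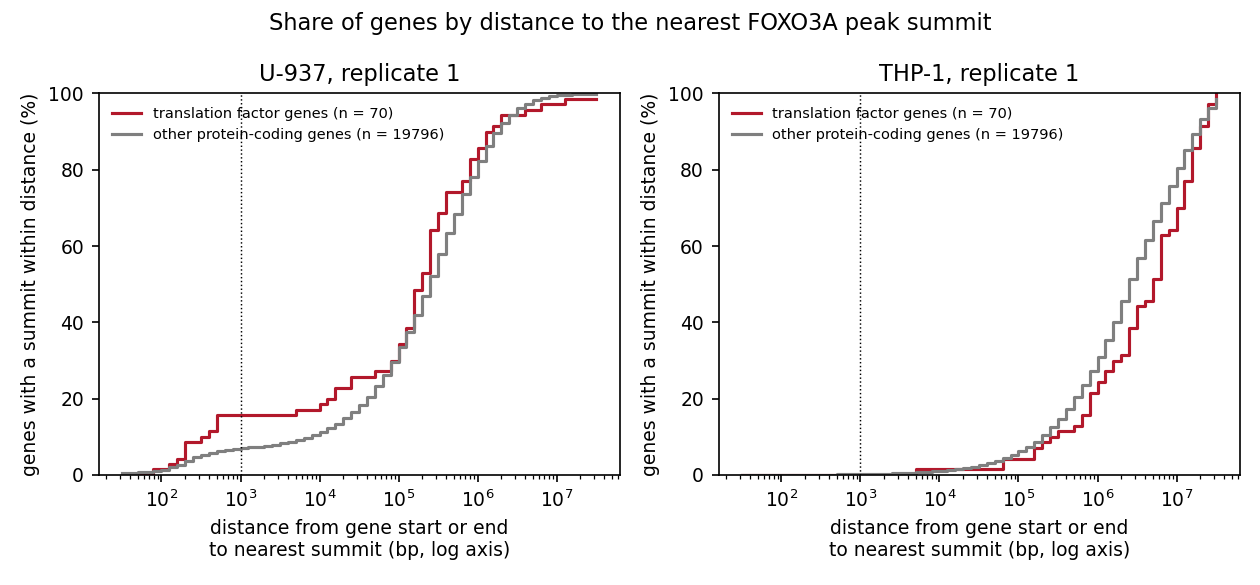
Cumulative share of genes (%, vertical axis) with a peak summit within a given distance of the gene start or end (bp, log axis), for U-937 and THP-1 replicate 1; red, 70 translation factor genes; grey, 19796 other protein-coding genes; dotted line, 1000 bp. In U-937 the red line stands at 15.7% and the grey at 6.99% at 1000 bp, and at 100000 bp they stand at 34.3% and 33.5%. At 251189 bp they stand at 64.3% and 52.2%.

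The genes of the eIF2 cycle with a U-937 peak were EIF2S1, EIF2B3, EIF2B4 and EIF2AK3. EIF2S1 encodes the alpha subunit of eIF2, whose phosphorylation slows initiation. Its peak, on chromosome 14 at 67359848 to 67360064, had a fold enrichment of 8.31, as deposited by the authors over a background that the sources do not state, and ranked 378 of the 2272 peaks. The summit lay 428 bp upstream of EIF2S1 but 96 bp from ATP6V1D, a subunit gene of the proton pump of lysosomes, so that the peak belongs as much to this neighbour. Of the 6 genes listed for eIF2 and related initiator tRNA carriers it was the only one called at 1000 bp.

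eIF2B, the exchange factor that recharges eIF2 with GTP, had a peak at 2 of its 5 subunit genes. The share was 40% (exact interval 5.27 to 85.3), and that of the other protein-coding genes, 6.99%, lay inside the interval. The count therefore does not set eIF2B apart from the background. The same held for every other role with a called gene, as each exact interval included 6.99%. At EIF2B3, the gamma subunit gene, the peak lay on chromosome 1 at 44986362 to 44986661 with a fold of 7.09 and its summit 79 bp inside the gene, the shortest distance among the 11 genes. At EIF2B4, the delta subunit gene, it lay on chromosome 2 at 27370046 to 27370331 with a fold of 6.66. Its summit was 178 bp downstream of the outermost start of EIF2B4 and 135 bp upstream of a second listed start, and 456 bp from SNX17, a sorting nexin gene. The nearest U-937 summits to EIF2B5, EIF2B2 and EIF2B1 were 117 kb, 164 kb and 673 kb away.

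Among the eIF2 kinases, EIF2AK3 was the 1 of 4 with a peak. It encodes PERK, the kinase that phosphorylates eIF2 when unfolded protein builds up in the endoplasmic reticulum. The peak, on chromosome 2 at 88627724 to 88627958, was weak for the list (fold 4.87, rank 1721 of 2272, -log10 q 2.88). Its summit lay 408 bp inside the gene's outermost end, 273 bp upstream of the listed start and 92 bp from the divergent lncRNA gene EIF2AK3-DT. The nearest summits were 22.4 kb away for EIF2AK1, which encodes the heme-regulated kinase, 74.6 kb for EIF2AK2, which encodes the double-stranded RNA sensor PKR, and 1196 kb for EIF2AK4, which encodes the amino acid sensor GCN2.

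Of the factors that select the start codon, 1 of 6 genes had a peak. EIF1AX encodes eIF1A, which helps the small subunit scan and recognise the start codon. Its peak, on chromosome X at 20141891 to 20142109, had a fold of 7.42 and a summit 198 bp upstream of the gene, with no other coding or lncRNA gene end within 1000 bp. The nearest summit was 89.01 kb from EIF5B, 141 kb from EIF1B, 332 kb from EIF1 and 371 kb from EIF5.

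The largest factor, eIF3, which bridges the small ribosomal subunit and the mRNA complex, had 1 of 14 genes with a U-937 peak (7.14%), and this share was close to the background. The gene was EIF3J, whose product is a loosely bound subunit near the decoding centre. Its peak was the widest of the 12, at 446 bp (chromosome 15, 44536745 to 44537190, fold 5.51). The summit lay 348 bp upstream of EIF3J and 124 bp from the divergent lncRNA gene EIF3J-DT. The median distance to the nearest summit over the 14 genes was 407 kb. The 13 uncalled genes ran from EIF3L, at 4.92 kb, and EIF3I, at 158 kb, to EIF3M, at 12209 kb, which was the farthest from a U-937 summit of all 69 genes that had a peak on their chromosome.

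The list of eIF4F, its helpers and genes of related symbol held 12 genes, of which EIF4A1 alone had a U-937 peak. EIF4A1 encodes the main RNA helicase that unwinds mRNA leaders, and was the only translation factor gene with a U-937 peak at both ends. The 5′ peak lay on chromosome 17 at 7572542 to 7572803 (fold 5.33, summit 144 bp upstream), 712 bp from the end of SENP3, a SUMO protease gene. The 3′ peak at 7579197 to 7579591 was stronger (fold 6.30). Its summit lay 472 bp beyond EIF4A1 but 160 bp from CD68, which encodes a lysosomal protein of monocytes and macrophages. EIF4E, the cap-binding protein gene, and EIF4G1, the scaffold gene, had no peak nearer than 182 kb and 297 kb.

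The repressors that bind eIF4E had no peak within 1000 bp in either line, 0 of 4 genes. With 4 genes a count of 0 allows, at 3 counts of the total, a share of up to 75.0%, so this says little about the set. EIF4EBP1 was 45.2 kb from the nearest U-937 summit and 5177 kb from the nearest THP-1 summit. EIF4EBP3 was 15.0 kb from a U-937 and 9106 kb from a THP-1 summit, and EIF4EBP2 was 148 kb and 27235 kb away. The read-through gene ANKHD1-EIF4EBP3, which the symbol rule does not take in, was called in U-937 (fold 7.42), through a summit 155 bp from the start that it shares with ANKHD1 and 146 kb from EIF4EBP3. The fourth gene, EIF4ENIF1, which encodes the eIF4E transporter, was 845 kb from the nearest U-937 summit.

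EIF5A carried the strongest peak of the 12. It encodes the factor, modified with the amino acid hypusine, that keeps ribosomes from stalling at difficult stretches such as runs of proline. The peak on chromosome 17 at 7307336 to 7307607 had a fold of 9.87, a -log10 q of 11.3 and rank 155 of 2272. Measured from the outermost of its 6 listed starts the summit lay 495 bp downstream, whereas it lay 134 bp upstream of the nearest listed start. EIF5A2, EIF5AL1 and EIF6, the other genes listed as late or hypusinated factors, had no summit within 666, 226 and 170 kb.

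Among elongation factor genes EEF1G was called. It encodes the gamma subunit of the complex that recharges eEF1A with GTP, and its peak on chromosome 11 at 62573922 to 62574128 (fold 7.09) had its summit 103 bp upstream, away from other gene ends. This was 1 of 6 eEF1 genes. EEF1A1, the gene of the main aminoacyl-tRNA carrier, was 133 kb from the nearest U-937 summit, and EEF2, the gene of the translocation factor, 213 kb. In THP-1 the nearest summit to EEF2 was 50.4 kb away. THP-1 had a single peak inside a translation factor gene, in EEF1A2, the eEF1A gene of muscle and neurons. It was 896 bp wide (chromosome 20, 63492090 to 63492985, fold 5.67, -log10 q 6.85), 4224 bp from an end of the gene. No U-937 summit lay inside a translation factor gene more than 1000 bp from both ends.

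The enzymes that methylate elongation factors gave 2 further genes. EEF1AKMT1, a lysine methyltransferase gene for eEF1A, had the weakest of the 12 peaks by fold (4.64, chromosome 13, 20773703 to 20773898, summit 169 bp from the gene's higher coordinate, its strand not being listed). EEF2KMT, a lysine methyltransferase gene for eEF2, had a fold of 5.33 (chromosome 16, 5098009 to 5098202, summit 315 bp from the higher coordinate, strand likewise not listed). Together they were 2 of the 8 modifying enzymes and other genes, while EEF2K, which encodes the kinase that inactivates eEF2, was 15.3 kb from a summit. Leaving out kinases, repressors, modifying enzymes, EIF1AD and the read-through gene EEF1AKMT4-ECE2 left 8 of 54 factor subunit genes with a peak (14.8%, 6.62 to 27.1). The share of the other protein-coding genes, 6.99%, lay inside that interval.

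**Figure D2:**
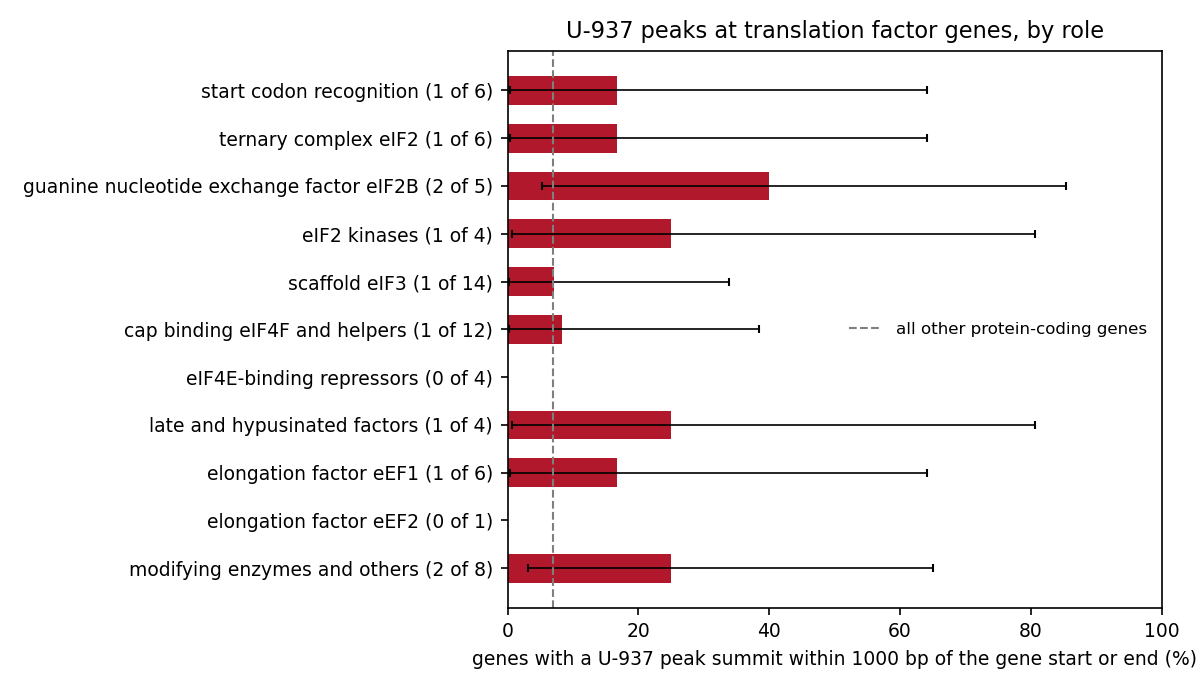
Share of genes (%, horizontal axis) with a U-937 summit within 1000 bp of the gene start or end, by role, with the number of genes beside each label; bars, share; lines, exact 95% interval, drawn for roles with at least 1 called gene; dashed line, all other protein-coding genes (6.99%). The highest share is at eIF2B (2 of 5), and every interval drawn spans the dashed line.

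Where the strand was listed, called translation factor genes had a U-937 peak at the 5′ end, as did most other called genes. The strand was listed for 9 of the 11 genes, and 9 of the 9 had a summit within 1000 bp of the 5′ end, EIF4A1 having one at its 3′ end too. Among the other called genes of listed strand, 94.3% had a peak at the 5′ end only, 4.44% at the 3′ end only and 1.26% at both (1193 genes). The summit lay upstream of the outermost 5′ end in EIF2S1, EIF3J, EIF1AX, EIF4A1 and EEF1G, and downstream of it in EIF2B3, EIF2B4, EIF2AK3 and EIF5A. Some peaks were shared with a neighbour, though no more often than at the other called genes. In 5 of the 11 genes the nearest summit was also within 1000 bp of another coding or lncRNA gene end (45.5%), against 57.7% of the other called genes, and in 3 of them (EIF2S1, EIF3J and EIF2AK3) that neighbour was nearer.

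**Figure D3:**
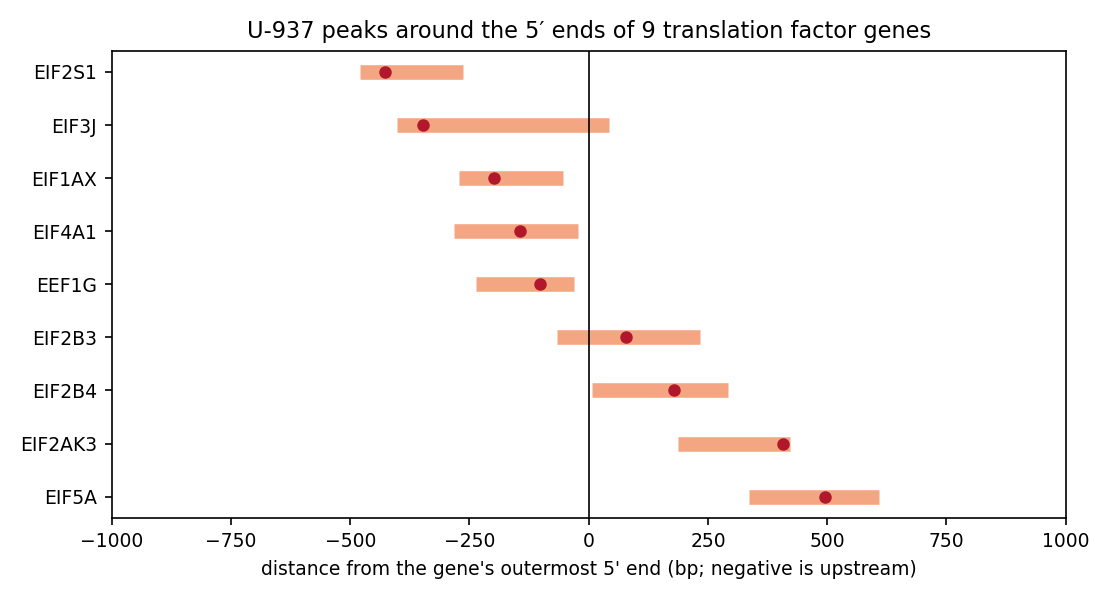
Extent of the U-937 peak (bar) and its summit (point) around the outermost 5′ end of the 9 called translation factor genes with a listed strand (bp, horizontal axis; negative is upstream; the 3′ peak of EIF4A1 is not drawn). Summits range from 428 bp upstream in EIF2S1 to 495 bp downstream in EIF5A.

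The 12 peaks had a median fold of 6.48 (range 4.64 to 9.87), beside 6.59 (range 2.89 to 15.3) for 1098 other U-937 peaks at protein-coding gene ends. Their median width was 248.5 bp against 252 bp, and their median -log10 q 5.08 against 5.38. The list held only 529 distinct fold values among 2272 peaks, so that the peaks of EIF2B3 and EEF1G had the same fold, p and q. At a -log10 q of at least 5 the called genes were EIF5A, EIF2S1, EIF1AX, EIF2B3, EEF1G and EIF2B4, 6 of 70 (8.57%), beside 3.91% of the other genes. At that threshold THP-1 had 0 of 70, beside 0.152%.

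**Figure D4:**
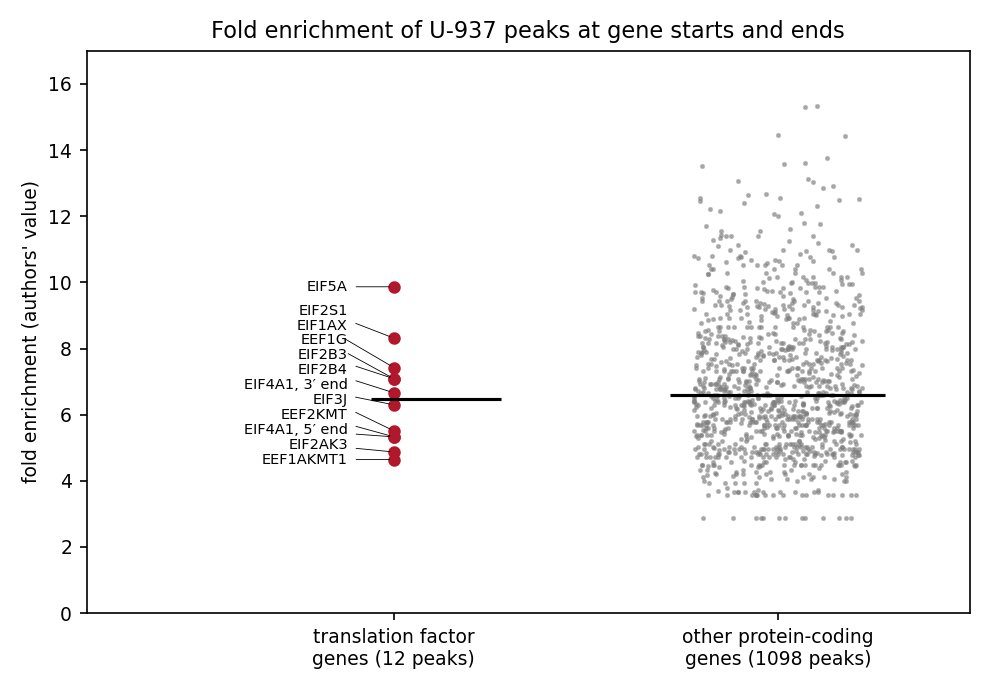
Fold enrichment deposited by the authors (vertical axis, linear) for the 12 U-937 peaks at translation factor genes (red, named) and 1098 other U-937 peaks at starts or ends of protein-coding genes (grey); black lines, medians. The medians are 6.48 and 6.59, and the red points span 4.64 to 9.87.

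Promoter sequence was listed for 56 of the 70 genes, 9 of them called, as a window of 300 bases of which 250 precede the start (1 window a gene, nearest the outermost 5′ end). These windows are not the sequence under the peaks. A U-937 peak covered part of the window in 6 of the 9 called genes, from 43 bases in EIF2B4 to 294 in EIF3J, and none of it in EIF2S1, EIF2AK3 and EIF5A. The forkhead motif GTAAACA, searched on both strands, was found in 0 of the 9 windows of called genes, in 1 of the 47 other translation factor windows (EIF3D) and in 2.67% of all 15843 protein-coding windows. Its looser form GTAAANA, which contains the first, was found in EIF5A and EIF2AK3 (2 of 9), in 6 of 47 and in 8.21% of all windows. Both of these matches lay in windows that no peak touched, and the EIF5A window is that of another start than the stretch printed above. The SP/KLF motif GGGCGG was in 7 of 9, 37 of 47 and 58.3%. Of the others, NRF1 was in 2 of 9 (EIF2B3 and EIF2S1), 7 of 47 and 8.59%, ETS (CCGGAAG) in 1 of 9, 13 of 47 and 14.2%, and the E-box CACGTG in 1 of 9, 14 of 47 and 8.82%. YY1 and CRE (TGACGTCA) were in 0 of 9, with 2 and 1 of 47 and 1.33% and 2.56% of all windows.

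CpG content was alike in translation factor promoters with and without a called peak. The median was 9 CpG per 100 bases in called translation factor genes and also in the other 47, against 8.67 in other called genes and 7 in other genes without a peak. CpG content therefore moved with the call among all genes and was high in this set, and its part in the count of 11 was not tested. Median GC content was 62.7% in the called translation factor windows and 64.3% in the others of the set.

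Other genes of translational control gave 4 further called genes. Of 46 genes in 5 lists, 4 had a U-937 peak within 1000 bp of an end (8.70%, 2.42 to 20.8) and 0 had a THP-1 peak. The shares over all protein-coding genes outside the translation factor set were 6.99% and 0.222%, so that the U-937 count was close to the background. AKT1S1, which encodes the mTORC1 inhibitor PRAS40 that AKT phosphorylates, was the 1 of 13 genes of mTORC1 and its effectors (fold 8.03, rank 459). PPP1R15B, which encodes the constitutive partner of the phosphatase that restores eIF2, was the 1 of 6 of the integrated stress response (fold 4.87, summit 36 bp from an end). Poly(A)-binding and scanning helpers gave 2 of 10, PABPC1, the poly(A)-binding protein gene (fold 6.93), and MCTS1, a gene for ribosome recycling and reinitiation (fold 4.56). Termination, rescue and hypusination genes had 0 of 8, and mitochondrial translation factor genes 0 of 9, which allow shares of up to 37.5% and 33.3%.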

How the data were processed

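CUT&Tag peak lists of U-937 and THP-1 were read as 10-column narrowPeak lists without a header. The build was hg38 and the tools included Bowtie2 and Picard, per the submitters' processing notes. Which program called the peaks, how it was set and how many reads it saw is not given in the sources used here. The authors deposited 1 list a library with, for each peak, an integer score (not used), a fold enrichment (a linear ratio), a -log10 p and a -log10 q. Fold was compared only within a list. Peaks of the THP-1 list on contigs were left out.

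Gene positions came from the RefSeq table (GRCh38.p14), of which 831 of 59792 genes, on other scaffolds, the mitochondrial genome or no chromosome, were left out. It has no strand, which was taken from the RefSeq promoter table (15843 of 19866 protein-coding genes). A gene was called when a summit lay within 1000 bp of its start or end. Intervals are exact (Clopper-Pearson, 95%). A count of 0 is given instead the share at 3 counts of the total, which is an approximation. The exact upper limits were 5.13% for the 0 of 70 genes in THP-1 and 60.2% for the 0 of 4 eIF4E-binding repressor genes. The rule for genes named with values took those called in either line, the 4E-BP genes and core subunits, and called genes of the related lists. Uncalled genes of the set outside this rule, and ANKHD1-EIF4EBP3, were named after their values were seen. Members and lists were chosen with earlier results of these data known. The location step was tested on simulated data. Python 3.11.15, pandas 2.3.3 and scipy 1.17.1 were used. Alternatives covered the window, the q threshold, peak overlap, gene starts only and factor subunits only.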

Additional observations from a re-analysis of the deposited data

How the results depend on the processing

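Each count comes from 1 library a line, so no library could be left out in turn, and depth is unknown. No paired analysis was possible because U-937 and THP-1 shared only 1 replicate number with peaks. With a -log10 q of at least 5, the U-937 count was 6 genes and 6 peaks in place of 11 and 12, and the stricter threshold alone removes peaks. Within 500 bp or 3000 bp, or with any overlap of peak and window, the count remained 11 of 70. It was 9 of 56 with gene starts only, 8 of 54 with factor subunits only, and 9 of 56 with any listed start, an alternative chosen after seeing the data. The U-937 minus THP-1 difference ran from 8.57 to 16.1 points over these settings. THP-1 had 0 genes throughout, and no U-937 peak at these genes was overlapped by a THP-1 peak, whether by 1 bp or by 50% of the shorter peak. With only 0.222% of the other protein-coding genes called in THP-1 at 1000 bp, these counts of 0 mark no trait of the set.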

Other observations

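Translation factor genes have many processed copies in the genome. The table listed 164 pseudogenes with the same symbol starts, 50 of them copies of EEF1A1, and none had a U-937 or a THP-1 summit inside it or within 1000 bp. The count of 0 allows a share of up to 1.83% in either line, beside 0.424% of 16491 other pseudogenes in U-937 and 0.364% in THP-1, so that a share equal to either background could not have been told from 0.

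The THP-1 peaks nearest to the 11 genes called in U-937 lay between 672 kb (EIF1AX) and 21975 kb (EIF2S1) away, with a median of 2720 kb. The median THP-1 distance over all other protein-coding genes was 2384 kb.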
